A study of Mus musculus with 2 samples.

Results

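The tubulin genes Tubb5, Tubb2a, Tubb2b, Tubb3, Tubb4b, Tubb6, Tuba1a, Tuba1b, Tuba1c and Tuba4a were followed on 2 Affymetrix 3′ expression arrays of mouse primary T cells. Members were the probe sets that the platform annotation assigns to exactly 1 of these 10 gene symbols, and there were 18 of them, for 8 genes, among 34945 probe sets with 1 gene symbol. Tuba1b and Tuba1c had no such probe set, because each of theirs is annotated together with a predicted gene. The genes were selected on the signals of these same arrays, above all the opposed ratios of the Tubb5 probe sets, so the values below are a description and no test is made.

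One array held total RNA of primary T cells whose stimulus was anti-CD3/CD28 antibodies. The other held RNA of primary T cells that received triptolide at 50 ng/ml besides the same antibodies. Cells were kept in culture for 18 h per the labels' protocols. The sources used here do not give mouse strain, age, the number of animals or the length of the exposure. Each condition was measured on 1 array, so no difference below has a replicate check, an SD or a p-value. In RNA of a mixed cell population, fewer cells of a type and less of a transcript per cell cannot be told apart.

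Microtubules are hollow polymers of α- and β-tubulin dimers. They form the spindle of dividing cells, and in T cells secretory granules travel along them to the contact with a target cell. The α and β chains are encoded by families of very similar genes, called isotypes. Tubulin transcripts are under autoregulation: when free dimers are abundant, TTC5 binds the start of the nascent chain on the ribosome and, with SCAPER, brings in the deadenylation machinery that removes the mRNA. Triptolide is a plant diterpenoid that binds the XPB subunit of the transcription factor TFIIH and inhibits transcription initiation.

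Signals are MAS5 intensities as deposited, on a linear scale. A floor of 118 was taken as background from 87 probe sets of chemosensory receptor genes, which T cells are not expected to express. Signals under it were set to it before log2 ratios (triptolide over stimulated) were formed. Since the arrays appear to be scaled to a common level, each ratio is relative to other transcripts, and RNA amount per cell is not known. A probe set counts as measured where both arrays exceed the floor and as detected where either does. Across all probe sets, 44.9% lay above the floor without triptolide and 42.2% with it. T cell markers were all above the floor on both arrays (9 of 9, with Cd3d at 11426 and 9733). Of the 9, 3 were at least 2-fold lower with triptolide, beside 12.5% of all detected genes. These were Cd8a (log2 ratio -1.60), Cd2 (-1.34) and Cd4 (-1.28). The log2 ratio was below 0 for 7 of the 9, beside 6603 of all 10968 detected genes. It was above 0 for Cd3e (0.46) and Cd3g (0.18). The summed signal of all 9 markers was 55471 without and 38808 with triptolide.

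Of the 18 tubulin probe sets, 8 were measured on both arrays, 3 were above the floor on the stimulated array only, and 7 were not detected. Among the 8 measured, 1416256_a_at of Tubb5 was at least 2-fold lower with triptolide and 1423642_at of Tubb4b was more than 2-fold higher. The other 6 lay within 2-fold. Among all 14748 measured probe sets, 13.2% passed 2-fold on the lower side and 5.58% on the higher side. The 3 probe sets above the floor on the stimulated array only could differ in 1 direction only, and 2 of them passed 2-fold. Over the 11 detected tubulin probe sets the counts were therefore 3 lower and 1 higher, beside 12.8% lower and 5.69% higher among all 19209 detected probe sets with 1 symbol. The median log2 ratio of the 8 measured tubulin probe sets was 0.46, beside -0.19 over all measured probe sets. Over the 11 detected it was -0.12, beside -0.17 over all detected. The latter pair became 0.04 and -0.06 when the arrays were scaled on their median. It became 0.09 and -0.02 on their trimmed mean, and 0.07 and -0.01 by quantiles. In each of these scalings 12 tubulin probe sets were detected, so the set was not the same. Scaling on housekeeping genes, with 11 detected, moved the pair the other way, to -0.20 and -0.24.

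**Figure D1:**
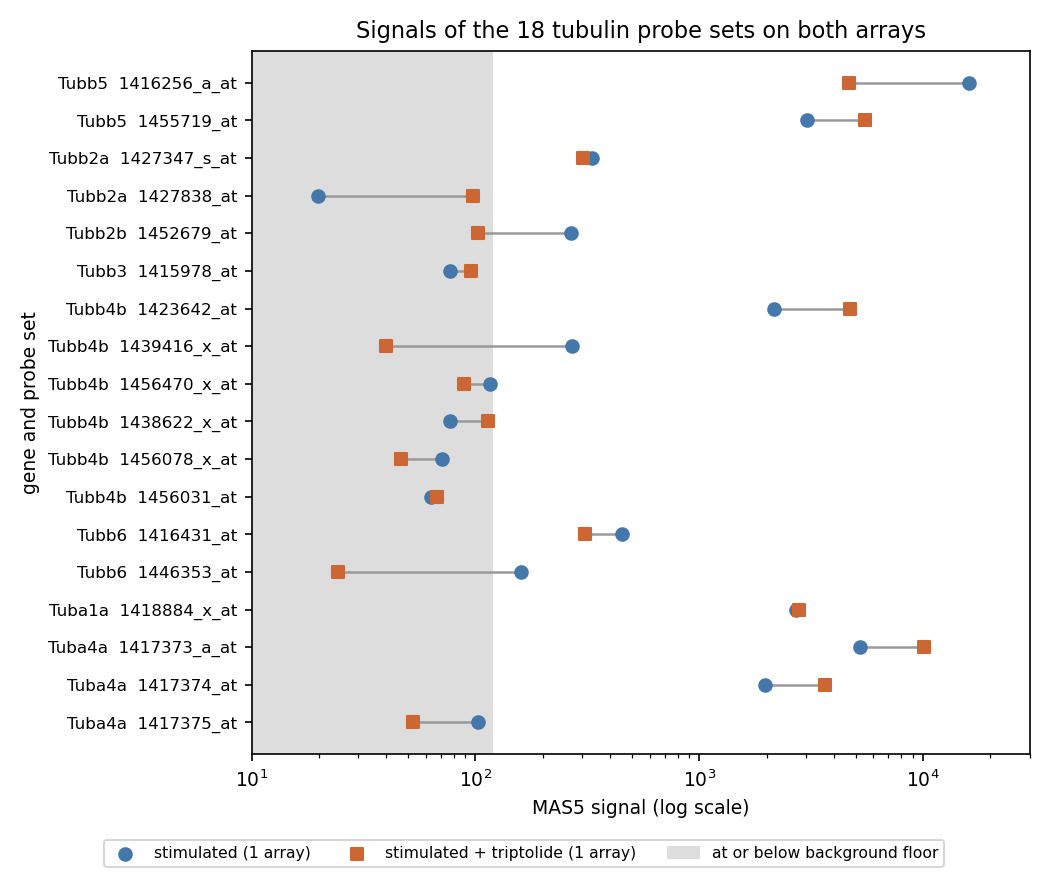
Each row is 1 of the 18 tubulin probe sets, with its MAS5 signal (log scale) on the stimulated array (circle) and on the array with triptolide (square), 1 array each; the grey area lies at or below the floor of 118. The 2 rows of Tubb5 run in opposite directions, and 7 rows lie wholly within the grey area.

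Tubb5 encodes the β-tubulin isotype made by many dividing cells. Its probe set 1416256_a_at read 16090 without triptolide and 4675 with it, 3.44-fold lower (log2 ratio -1.78). Its probe set 1455719_at read 3019 without triptolide and 5527 with it, 1.83-fold higher (log2 ratio 0.87). All 4 signals were far from background, at 25.5 to 135.9 times the floor. The probe sets thus gave opposite directions for the same gene and differed by 2.66 on the log2 scale, and no direction is given for Tubb5. In the settings tried, including 4 other scalings of the arrays, the first lay between -1.86 and -1.61 and the second between 0.79 and 1.05. Each kept its sign, but the scaling factors (log2 -0.08 to 0.17) were too small to change it. The settings are therefore no check of the disagreement.

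A disagreement of that size was uncommon on these arrays, but Tubb5 was picked for it, so its place among genes is no test. Over the 3733 genes that had 2 or more measured probe sets, the median distance between a gene's highest and lowest log2 ratio was 0.54, and its 95th percentile was 1.78. A distance of at least that of Tubb5 was found in 26 genes (0.696%), Tubb5 included. Of the 2285 genes with exactly 2 measured probe sets, as Tubb5 has, 3 reached it, Tubb5 included. The brightest pair of a gene went the same way in 72.0% of genes, and the SD between the pair was 0.49 per probe set, a guide to technical precision that leaves out variation between cultures. In 184 genes a probe set at least 2-fold lower stood beside a higher one.

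**Figure D2:**
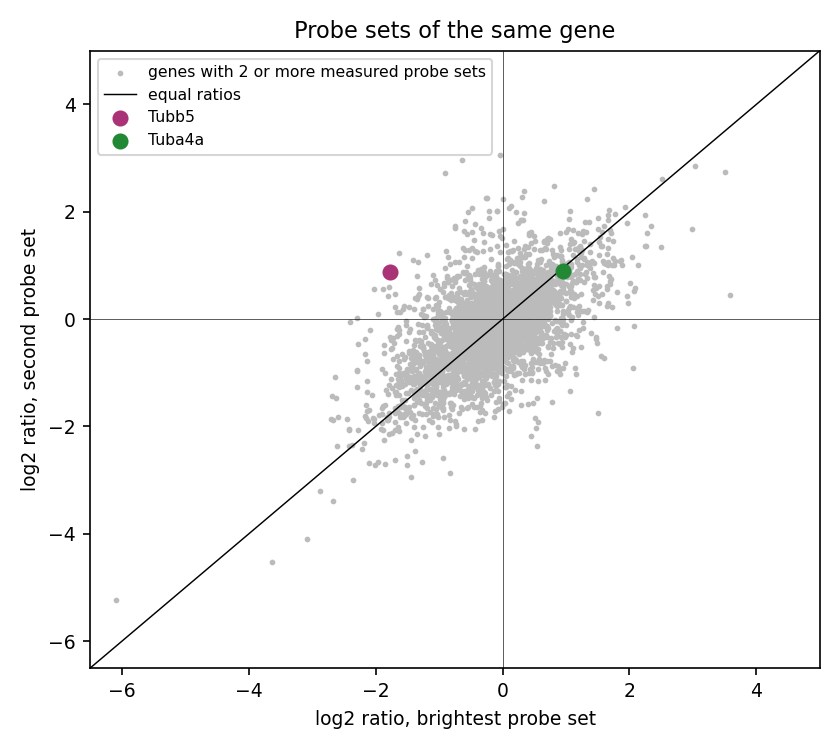
Each grey point is 1 of 3733 genes that had 2 or more measured probe sets, placed by the log2 ratio (triptolide over stimulated) of its brightest probe set on the x axis and of the next brightest on the y axis; the diagonal marks equal ratios. Tubb5 lies at -1.78 and 0.87, far off the diagonal, and Tuba4a at 0.95 and 0.89, close to it.

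The Tubb5 probe sets also differ in what they were designed to see. The suffix _a_at marks a probe set whose probes are shared by alternative transcripts of 1 gene, and plain _at a probe set unique to its target. The annotation lists a RefSeq mRNA as the target of 1416256_a_at and another GenBank sequence as that of 1455719_at. The positions of the probes on the transcript are not used here. Over all detected probe sets, the median log2 ratio was -0.18 for 2932 probe sets of type _a_at and -0.17 for 13720 of plain type. These medians are over different genes, so they cannot speak to a difference between probe sets of the same gene.

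Tubb4b encodes a β-tubulin isotype that most tissues make. Its probe set 1423642_at read 2155 without triptolide and 4720 with it, 2.19-fold higher (log2 ratio 1.13, and 1.05 to 1.30 over the settings). This was the highest ratio among the detected tubulin probe sets. The probe set 1439416_x_at went the other way: it read 269.7 in the absence of triptolide and 39.7, below the floor, in its presence, at least 2.28-fold lower. With the floor doubled its log2 ratio was -0.19. The suffix _x_at marks probe sets with probes that also match other sequences. The other 4 probe sets of Tubb4b, 3 of them of type _x_at, had signals between 46.5 and 116 on both arrays and were not detected. For Tubb4b too, then, the detected probe sets pointed in opposite directions, but the lower one rests on signals near background.

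The remaining β-tubulins had signals of at most 3.82 times the floor. For Tubb2a, a β isotype abundant in neurons, 1427347_s_at read 331.3 without and 304.0 with triptolide (log2 ratio -0.12). This probe set, of a type shared by several transcripts, was above 0 in 3 of 4 other scalings (up to 0.10). Its other probe set, 1427838_at, read 19.7 and 97.1 and was not detected. Tubb2b, a neighbour of Tubb2a on the chromosome with no protein-coding gene between them, read 266.1 and, with triptolide, 102.4, below the floor, on 1452679_at, at least 2.25-fold lower. That call was lost with the floor doubled (log2 ratio -0.17). A further probe set, annotated to Tubb2b and the pseudogene Tubb2a-ps2 together, read 203.4 and 30.2.

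Tubb6, a β isotype made in many tissues, read 451.7 without and 307.5 with triptolide on 1416431_at (log2 ratio -0.55). It read 159.5 and 24.4 on 1446353_at, at least 1.35-fold lower. Both Tubb6 probe sets were thus lower with triptolide, neither by 2-fold at this floor. Without a floor the dimmer one had a log2 ratio of -2.71, so its size is set by the treatment of low signals. Tubb3, the β isotype used as a marker of neurons, read 76.8 and 95.4 and was not detected on either array. Of 6 neuronal marker genes, 1 was above the floor without triptolide and 0 with it. That gene, Rbfox3, read 118.8 against a floor of 118.39 (log2 ratio -0.005), so no loss is read from it.

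The α-tubulins with a probe set of their own were Tuba4a and Tuba1a. Tuba4a encodes the α isotype whose gene lacks the C-terminal tyrosine codon found in most others. Its signal was 5235 without and 10090 with triptolide on 1417373_a_at, 1.93-fold higher (log2 ratio 0.95). On 1417374_at it was 1969 and 3642, 1.85-fold higher (log2 ratio 0.89). The third probe set, 1417375_at, was under the floor on both arrays (102.8 and 52.7). The pair above the floor differed by far less than those of Tubb5, and both were higher with triptolide in all settings, from 0.81 to 1.12. Tuba1a, an α isotype best known from developing neurons, read 2718 without and 2806 with triptolide on 1418884_x_at (log2 ratio 0.05). In other scalings it lay between -0.03 and 0.22, so no direction is given.

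Tuba1a, Tuba1b and Tuba1c lie close together on 1 chromosome. The probe set annotated to Tuba1b together with the predicted gene Gm5620 (1423846_x_at) read 26128 without and 20299 with triptolide (log2 ratio -0.36). Those annotated to Tuba1c together with Gm6682 read 1153 and 1350 on 1448232_x_at (log2 ratio 0.23) and 417.5 and 343.7 on 1416128_at (log2 ratio -0.28). A probe set annotated to Tuba1a and Gm6682 was not detected (87.9 and 65.0). None of these shared probe sets reached 2-fold, and since each has more than 1 annotated gene, no value is assigned to Tuba1b or Tuba1c.

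**Figure D3:**
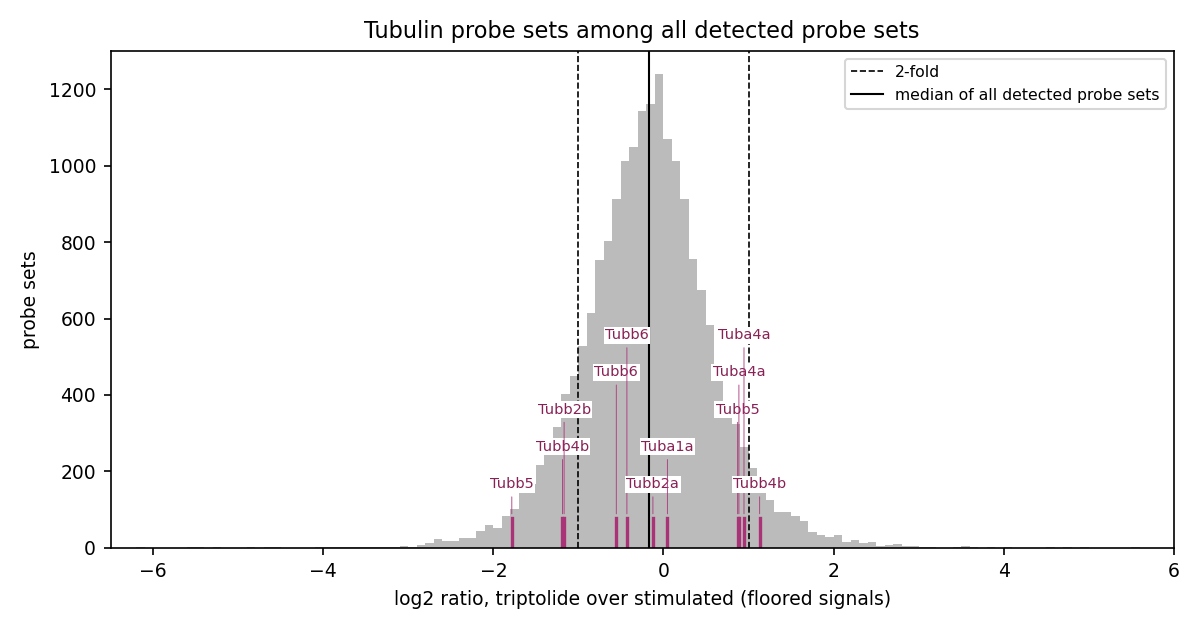
The grey histogram counts all 19209 detected probe sets with 1 gene symbol by log2 ratio (triptolide over stimulated, signals floored at 118); coloured ticks mark the 11 detected tubulin probe sets by gene, dashed lines mark 2-fold and the solid line the median of all, -0.17. The tubulin ticks run from -1.78 (Tubb5) to 1.13 (Tubb4b), with Tubb5 and Tubb4b each on both sides of 0.

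With 4 of the 5 probe sets above 0 between 0.87 and 1.13, the count of probe sets at least 2-fold higher depended on the scaling. The deposited values and the scaling on housekeeping genes gave 1, but it was 3 when scaled on the median of all probe sets and 4 when scaled on their trimmed mean or by quantiles. The share of all detected probe sets at least 2-fold higher was 5.69% as deposited and 7.30%, 8.0% and 8.45% in these scalings. The 4 were those of Tubb4b (1423642_at), Tuba4a (1417373_a_at and 1417374_at) and Tubb5 (1455719_at). Over all detected probe sets, the share of lower among the 2-fold differences was 69.3% as deposited, and 58.4%, 54.0% and 50.9% in those 3 scalings, which moved the median of all detected probe sets by 0.11 to 0.17. Scaling on housekeeping genes moved that median by -0.07, and the share of lower was 75.2%. Relative to that median, 1423642_at of Tubb4b and both Tuba4a probe sets were on the higher side under each scaling.

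Since triptolide acts at transcription start sites, the sequence before the start is shown for 3 members. These are Tubb5, whose probe sets disagree, Tubb4b, with the highest ratio, and Tuba1a, with the ratio nearest 0. Windows of 250 bases that end at the base before the annotated start come from RefSeq, build GRCm38.p6, and 8 of the 10 genes matched. They are chr17:35838302-35838551 for Tubb5, chr2:25224703-25224952 for Tubb4b and chr15:98953502-98953751 for Tuba1a, all on the minus strand and printed 5′ to 3′ along the gene. Capitals mark CCAAT, the core of the CCAAT box, and GGGCGG, the GC box, on either strand.
Tubb5: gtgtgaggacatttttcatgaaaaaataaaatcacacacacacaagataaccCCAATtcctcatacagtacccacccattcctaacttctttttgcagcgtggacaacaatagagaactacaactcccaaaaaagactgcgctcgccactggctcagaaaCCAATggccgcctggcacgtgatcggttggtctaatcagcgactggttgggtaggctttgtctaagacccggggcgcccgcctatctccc
Tubb4b: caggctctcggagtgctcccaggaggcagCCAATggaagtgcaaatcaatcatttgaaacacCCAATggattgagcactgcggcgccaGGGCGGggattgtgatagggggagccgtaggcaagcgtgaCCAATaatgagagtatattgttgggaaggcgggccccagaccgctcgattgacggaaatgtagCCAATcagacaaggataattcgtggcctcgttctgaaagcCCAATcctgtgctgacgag
Tuba1a: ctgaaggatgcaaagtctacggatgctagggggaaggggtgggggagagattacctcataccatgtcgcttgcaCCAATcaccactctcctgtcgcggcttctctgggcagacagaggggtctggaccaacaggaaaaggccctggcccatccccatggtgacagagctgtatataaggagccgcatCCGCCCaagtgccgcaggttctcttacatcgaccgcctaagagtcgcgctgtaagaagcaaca
The Tubb4b window held 5 copies of CCAAT, at -221, -188, -122, -59 and -19, and 1 of GGGCGG at -162. The Tubb5 window held CCAAT at -198 and -90 and no GGGCGG, and that of Tuba1a held CCAAT at -176 and GGGCGG at -63 on the opposite strand (positions give the leftmost base, with the base before the start as -1). TATAAA, the TATA box core, was searched too and occurred in none of the 3 and, among the 8 matched tubulin windows, in that of Tubb2a alone, at -29. Only exact matches were counted, and the Tuba1a window holds tataag, which differs from TATAAA in its last base. The motifs did not overlap. Of 32851 promoter windows of the same length, 33.8% held CCAAT, 32.7% GGGCGG and 12.4% TATAAA on either strand. These matches describe letters and not bound factors.

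Among tubulins outside the 10 genes, 4 of 8 with a probe set of their own were detected, 1 of them at least 2-fold higher and 1 lower (median log2 ratio -0.11). Among all 10968 detected genes, each by its brightest probe set, 5.63% were higher and 12.5% lower by that rule, with a median of -0.16. Tubb4a, a neuronal and glial β isotype, read 143.6 without and 325.0 with triptolide, 2.26-fold higher on a signal close to the floor. Tubg1, the γ-tubulin that seeds microtubules, read 734.2 and 916.7 (log2 ratio 0.32). Tube1 (ε-tubulin) read 337.9 without and 107.5, under the floor, with triptolide, at least 2.85-fold lower. Tubb1, the β-tubulin of platelets, was not detected (39.9 and 86.5). Of the other platelet markers, Gp5 read 295.6 and 861.8 and Itga2b 190.9 and 406.7, and the remaining 3 were under the floor. The summed signal was 709 without and 1424 with triptolide over the 6 platelet markers, 4722 and 3040 over 5 B cell markers and 4943 and 6929 over 7 myeloid markers. Ighm (3482 and 1805) made up most of the B cell sum. The log2 ratio was below 0 for 4 of those 5 markers, beside 6603 of 10968 detected genes, while Cd79a was higher (349 and 674). Ctss (4321 and 5971) made up most of the myeloid sum, and 3 of those 7 markers were under the floor on both arrays. The part of other cells in the tubulin signals was not tested.

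Tubulin chains need the chaperonin CCT, prefoldin and dedicated cofactors to fold and pair. All 24 genes of this folding list were measured. Of them 1 was at least 2-fold lower and 0 higher, with a median log2 ratio of -0.32, beside 12.5% lower, 5.63% higher and a median of -0.16 among all detected genes. The lowest were Tbcb, a cofactor that binds α-tubulin (1865 to 872, log2 ratio -1.10), and Pdcl, a CCT partner (887 to 467, -0.93). The highest were Tbcc, which triggers release of the finished dimer (0.34), and Tbcel (0.24). On their other measured probe sets, Pdcl lay at -1.83 and Tbcel at 0.64. Of the 24, 20 had a log2 ratio below 0, beside 6603 of all 10968 detected genes. The list median stayed below 0 in the settings tried (-0.40 to -0.14). So did the median of all detected probe sets (-0.24 to -0.01).

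The enzymes that modify tubulin and the autoregulation factors formed a list with 14 detected of 20 genes. Of these, 3 passed 2-fold on the lower and 1 on the higher side (median -0.10, and -0.19 to 0.06 over the settings), beside 12.5% and 5.63% of all detected genes. Both autoregulation factors were among the lower ones. Ttc5, the factor that recognises nascent tubulin, read 685.5 without and 302.0 with triptolide (log2 ratio -1.18), and its other probe set read 173.5 and 64.4, the latter under the floor. Scaper read 440.6 and 148.9 (log2 ratio -1.57), and 355.7 and 108.7, the latter under the floor, on its other probe set. The third was Agbl5, a deglutamylase (342.6 to 159.6, -1.10). Ttll3, a tubulin glycine ligase, was higher (181.6 to 540.2, log2 ratio 1.57), as was its other measured probe set (1.37), and Ttll5, a glutamylase, had a log2 ratio of 0.31.

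Among factors that nucleate microtubules, 20 of 21 were detected, with 2 past 2-fold on the lower side, 0 on the higher and a median of -0.08 (-0.16 to 0.11 over the settings), again beside 12.5% and 5.63% of all detected genes. The lower ones were Pcnt, a centrosome scaffold (703.6 to 316.6, log2 ratio -1.15), and the augmin subunit Haus6 (816.0 to 400.6, -1.03). The other measured probe set of Haus6 lay at -0.39. The γ-tubulin complex genes Tubgcp3 and Tubgcp4 had the highest ratios, 0.64 and 0.44, but the other measured probe sets of Tubgcp4 lay at -0.38 and -0.36.

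Genes that govern microtubule growth and shrinkage had a median of -0.52 (-0.60 to -0.29 over the settings). Of 19 detected, 3 passed 2-fold on the lower side and 0 on the higher, where all detected genes gave 12.5% and 5.63%. The depolymerising kinesin Kif2a read 1289 without and 472 with triptolide (log2 ratio -1.45), and its 4 measured probe sets were all lower (-1.49 to -0.67). The plus-end protein Mapre1 read 4761 and 2110 (-1.17), with other measured probe sets between -0.61 and 0.00. The third was the polymerase Ckap5 (-1.05, and -0.57 on its other measured probe set). The spindle genes Kif2c and Tpx2 had the highest ratios, 0.82 and 0.72. Kif2c read 155.2, close to the floor, without triptolide and 273.3 with it. Its other measured probe sets lay at 0.43 and 0.33. On probe sets above the floor on 1 array only, Tpx2 lay at -0.48 and 0.04. Stmn1, which sequesters tubulin dimers, had 0.53 and 0.43 on its probe sets (4387 to 6354 and 500 to 672).

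**Figure D4:**
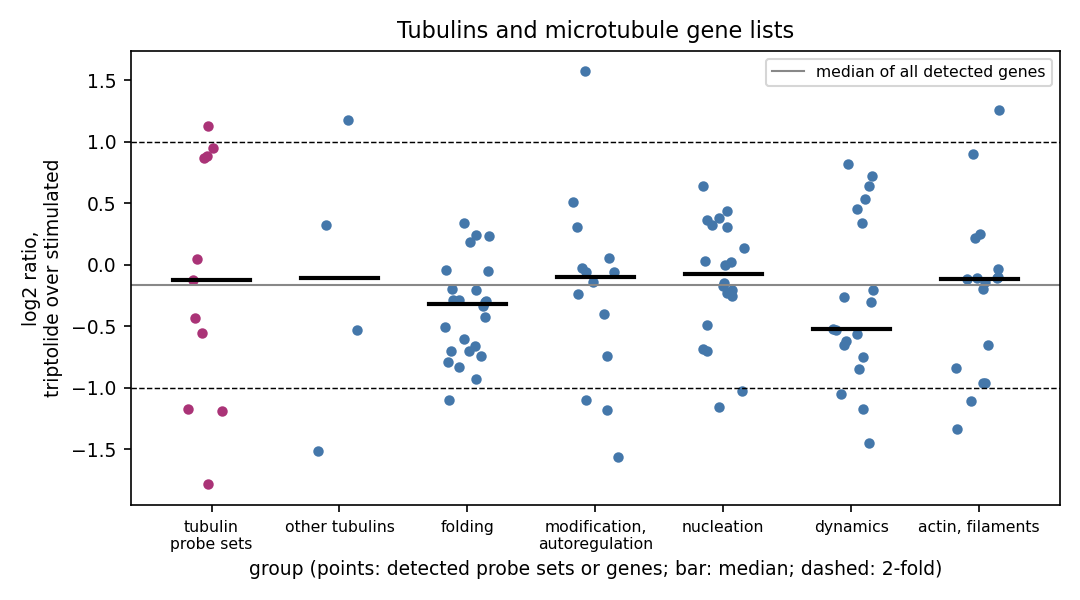
Points are log2 ratios (triptolide over stimulated) of the 11 detected tubulin probe sets and of the detected genes of each list, black bars are medians, dashed lines mark 2-fold and the grey line is the median of all detected genes, -0.16. The list medians run from -0.52 (dynamics) to -0.08 (nucleation), and the tubulin probe sets split into a group near 1 and a group at or below 0.05.

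Actin and other filament genes served for comparison with another cytoskeletal system. All 17 were measured, with 2 at least 2-fold lower, 1 higher and a median of -0.11 (-0.28 to 0.06 over the settings), shares near the 12.5% and 5.63% of all detected genes. Cnn2, an actin-binding calponin, read 5096 and 2017 (log2 ratio -1.34) and the capping protein gene Capza1 10111 and 4699 (-1.11). Lmna, encoding lamin A and C, was higher on its brightest probe set (253.1 to 606.7, 1.26) and at -0.06 on the other measured one. Arpc5, of the ARP2/3 complex, had a log2 ratio of 0.90. Actb read 39589 and 36811 (-0.10) on its brightest probe set and 1132 and 1950 (0.79) on the other.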

How the data were processed

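Per the submitters' processing notes, the authors computed signals with MAS5, which summarises each probe set as 1 background-corrected intensity. The deposited intensities are on a linear scale, 1 per probe set and array. The sources used here do not give the MAS5 version, scaling settings or detection calls. Both arrays have a 2% trimmed mean of 2000.0 over the 100 probe sets listed first, so they appear to have been scaled on these, and no tubulin probe set is among them. Over all 45037 probe sets that mean was 383 (stimulated) and 340 (triptolide). Names come from the platform annotation and from Entrez numbers in RefSeq GRCm38.p6 (34945 with 1 symbol, 932 with several, 9160 with none). The floor of 118 is the higher of the arrays' 95th percentiles over 87 chemosensory receptor probe sets. In gene lists a gene is its probe set with the highest mean floored log2 signal. Some list genes had no probe set with 1 symbol and were left out. Differences were counted at a fixed 2-fold, with no test, since each group has 1 array, and the number of arrays limits the precision. Named are all member probe sets, the 2 highest and 2 lowest measured genes of each list, Ttc5, Stmn1 and Actb; others (Agbl5, Ckap5, Tube1, marker genes) were chosen after their values were seen. Members and lists were chosen with earlier results of these data known. The calculation was tested on simulated data. Alternatives were 4 scalings, other floors, a pseudocount of 64, other probe set choices and a fold of 1.5. Python 3.11.15 with numpy 2.4.6 and pandas 2.3.3 was used.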

Additional observations from a re-analysis of the deposited data

How the results depend on the processing

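Most values moved by less than 0.49 (log2), the SD between a gene's probe sets, used in place of a replicate spread. No tubulin probe set that passed 2-fold changed sign in the settings that kept it. Genes of the lists were followed across settings only through their list's median. The count of tubulin probe sets at least 2-fold higher, 1 as deposited, was 3 when scaled on the median and 4 when scaled on the trimmed mean, by quantile normalization or, chosen after seeing the data, at a fold of 1.5. The share of all detected probe sets that passed was 5.69% as deposited, 7.30%, 8.0% and 8.45% in those scalings and 13.5% at a fold of 1.5. The count at least 2-fold lower, 3 of 11 as deposited, was 4 of 11 without a floor and 4 of 18 at 0.5 times the floor. All detected probe sets gave 19.5% and 14.6% there. The count was 1 of 10 with the floor doubled, beside 11.6% of all detected probe sets. It was 1 of 6 with plain _at probe sets only, beside 12.7%. Where the brighter array had to reach 4 times the floor it was 1 of 6, beside 16.7%. In that last setting 6 tubulin probe sets remained and their median log2 ratio was 0.88. With the probe sets annotated to several genes added, a choice made after seeing the data, the median of the then 15 detected was -0.28. The median of the other tubulin genes, -0.11 over 4 detected genes, was 0.75 with plain _at probe sets only and 0.32 with the floor doubled or at 4 times the floor. The distance between the Tubb5 probe sets stayed between 2.63 and 2.69. Scaling an array by 1 factor cannot change this distance, and the floors tried lie far below the signals. Its steadiness is therefore no check of the disagreement. With plain _at probe sets only, Tubb5 has 1 probe set and gives no distance. Ratios of Tubb4b 1439416_x_at, Tubb6 1446353_at and Tubb2b 1452679_at moved with the floor and have little precision, because their signals were 1.35 to 2.28 times the floor without triptolide and under it with triptolide. No paired analysis was possible because each group has 1 array.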

Other observations

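Tubb5 was not the only gene with opposed probe sets. In 2215 genes the brightest pair of measured probe sets both reached 4 times the floor on their brighter array. Of these, 16 had log2 ratios of at least 0.8 in opposite directions, a limit set after the values of Tubb5 were seen. By the distance within the pair, Tubb5, which was picked for that disagreement, was at rank 5. Above it stood Lamp2, a lysosomal membrane protein (1618 to 864 on one probe set and 393 to 2576 on the other), and Fbxl20, a ubiquitin ligase subunit (360 to 1016 and 1034 to 307). The splicing regulator Hnrnpa2b1 followed (4541 to 18952 and 11480 to 6067), then the phosphatase inhibitor gene Ensa (1778 to 570 and 239 to 561). The other members included Camk4, Sik3, Zc3hav1 and Rad18. For these genes, as for Tubb5, the choice of probe set sets the direction reported for the gene.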
